A study of Mus musculus with 15 samples.

Results

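The genes described here code for the enzymes of cholesterol synthesis, for SREBP2 and the proteins that control it, and for cellular uptake and transport of sterols. A list of 33 genes was matched to the arrays by symbol, and a gene counted as measured where a probe set carried its symbol alone. This held for 29 of the 33, out of 18820 genes measured in all, and each gene was read from its brightest probe set. Acat2, Mbtps2, Soat1 and Soat2 were not analysed here. The list was drawn up by pathway and not by measured values, though with earlier results of these arrays known.

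The cells were primary hepatocytes of male C57BL/6J mice, isolated by collagenase perfusion and a Percoll gradient and cultured on collagen. They were measured on 15 Affymetrix arrays in 5 groups of 3. The control group received an adenovirus for GFP alone, and the other groups received an adenovirus that encodes GFP together with human FXRα1, FXRα2, FXRα3 or FXRα4. All groups were transduced overnight in high-glucose medium with dexamethasone and insulin, were then kept without both hormones, and gave RNA 36 h after transduction. FXR is the bile acid receptor of the liver, a nuclear receptor encoded by Nr1h4. FXRα1 and FXRα3 carry a short insert next to the DNA-binding domain that FXRα2 and FXRα4 lack, and the N-terminus is longer in FXRα3 and FXRα4 than in the other two. Each isoform group is thus a human receptor forced from a virus on top of the cells' own mouse receptor, and every virus drives GFP from a CMV promoter of its own. Nothing in the labels says that the arrays of a group stem from different mice or cultures, so the p-values reflect the spread between these samples alone, which may be technical. The level of the transgenes was not analysed here.

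Cholesterol is built from acetyl-CoA through mevalonate, isoprenoid diphosphates, squalene and lanosterol, and the liver is a main site of this synthesis in the body. The transcription factor SREBP2, encoded by Srebf2, drives most enzymes of the route together. When membranes are rich in sterol, Insig proteins hold SREBP2 and its escort Scap in the endoplasmic reticulum; when sterol is low, Scap carries SREBP2 to the Golgi, where proteases release its active domain. FXR is known above all for the control of bile acid synthesis, the main route by which the liver disposes of cholesterol.

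The values are log2 levels as deposited, and array medians over all probe sets lay between 4.92 and 5.01. Arrays of one group correlated across genes with r from 0.997 to 0.999. The hepatocyte marker Alb averaged between 13.07 and 13.14 in the 5 groups, and Pck1, another hepatocyte marker, between 3.72 and 3.93. Other hepatocyte markers moved in opposite ways: Hnf4a averaged 9.09 with GFP and 10.18, 10.62, 9.76 and 9.95 with FXRα1 to FXRα4, Tat 10.08 and 9.43, 8.80, 9.26 and 8.63, and Fgb 10.19 and 9.81, 10.86, 9.95 and 10.57. With FXRα1 to FXRα4, 2, 5, 4 and 5 of the 8 measured hepatocyte markers rose and 2, 1, 2 and 1 fell. Over all genes, 8.42%, 17.5%, 7.45% and 18% rose and 4%, 16.7%, 6.62% and 15.7% fell. These counts use the test defined below. The 8 measured hepatocyte markers of 10 had array means of 9.79 to 9.83 with GFP and 9.82 to 10.10 over the isoform arrays. Array means of the marker lists were 4.40 to 4.74 for Kupffer cells, 4.48 to 4.78 for sinusoidal endothelial cells, 4.49 to 4.66 for stellate cells and fibroblasts, and 3.51 to 3.80 for lymphocytes and neutrophils. Single markers departed from these means. Cd68 of the Kupffer list averaged 8.67 to 9.05. Reln of the stellate list averaged 6.11 with GFP and 6.28, 6.66, 6.05 and 7.08 with FXRα1 to FXRα4, and endothelial Oit3 5.96 and 5.66, 4.96, 5.53 and 5.22. With FXRα1 to FXRα4, 0, 1, 0 and 0 of 8 endothelial markers rose and 0, 1, 1 and 2 fell. Of 9 stellate markers, 0, 1, 0 and 1 rose and 0, 0, 0 and 1 fell. In the other 2 lists 0 passed against GFP. The 5 measured cholangiocyte markers of 7 had array means of 5.92 to 5.98 with GFP, 6.44 to 6.45 with FXRα1, 6.69 to 6.82 with FXRα2, 6.53 to 6.59 with FXRα3 and 6.83 to 6.97 with FXRα4, with a split by the insert in some of them. Epcam averaged 5.02 with GFP and 5.70, 9.97, 5.76 and 9.70 with FXRα1 to FXRα4, Krt19 9.37 and 10.70, 7.55, 11.13 and 8.44, and Sox9 7.58 and 8.03, 8.63, 8.21 and 8.65. Krt7 averaged between 4.57 and 4.78, and Cftr, a defining channel of cholangiocytes and the dimmest of the 5, between 2.99 and 3.05. An interferon list (19 of 20 genes measured) had array means of 5.31 to 5.91 with GFP, against 5.07 to 5.21, 5.25 to 5.55, 5.10 to 5.24 and 5.20 to 5.33 with FXRα1 to FXRα4. The part of these marker shifts in the results was not tested. In bulk RNA, fewer cells of a type and less RNA per cell cannot be told apart.

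The cholesterol genes moved in both directions and by modest amounts. Hmgcs1, Msmo1, Dhcr7 and Srebf2 rose most clearly, with FXRα2 and in part with FXRα4, the isoforms without the insert. Fdps, Insig1, Sc5d and Npc1 fell with each of the 4 isoforms. A gene is said to have risen, fallen or changed where its adjusted p was below 0.05 in limma's moderated test, with Benjamini-Hochberg adjustment across every gene in that comparison. In the comparison of FXRα2 with GFP, 11 of the 29 genes rose and 6 fell, where 17.5% of all genes rose and 16.7% fell. With FXRα4, 9 rose and 7 fell, against a background of 18% and 15.7%. With FXRα1, 1 rose and 6 fell, where 8.42% and 4% of all genes did so. With FXRα3, also 1 rose and 6 fell, against 7.45% and 6.62%. The median log2 difference of the 29 genes was 0.16 for FXRα2, -0.031 for FXRα4, -0.081 for FXRα1 and -0.030 for FXRα3, beside medians over all genes of -0.048, -0.027, 0.0035 and -0.0026. These 4 comparisons use the same 3 GFP arrays and are not independent of each other. Of the 29 genes, 20 passed the test in at least 1 of them and 9 in none, where 47.8% of all genes passed in at least 1.

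The split between higher and lower depended on how the arrays were scaled. The scalings below used the measured genes alone and not all probe sets. Over these genes the array medians lay between 5.60 and 5.91. With every array set to that median, the middle difference over all genes shifted by -0.22 with FXRα2, -0.21 with FXRα4, -0.10 with FXRα1 and -0.039 with FXRα3. The 29 genes then split into 4 that rose and 13 that fell with FXRα2, 5 and 16 with FXRα4, 0 and 12 with FXRα1, and 1 and 7 with FXRα3. Of all 18820 genes, 1889 rose and 11273 fell there with FXRα2, and 1927 and 9860 with FXRα4. The counts over all genes were 1005 and 2070 with FXRα1, and 1220 and 1838 with FXRα3. Under quantile normalization and centring on the 75th percentile the shifts were between -0.051 and 0.059 over all comparisons, and with FXRα2 the split stayed at 11 and 6. Over all genes, 3191 rose and 3958 fell with FXRα2 under quantile normalization, and 3307 and 3343 under 75th percentile centring. Genes that rose with FXRα2 under the deposited scale and all 3 other scalings were Hmgcs1, Msmo1, Dhcr7 and Srebf2; Fdps, Insig1, Lss, Npc1, Sc5d and Scap fell under each.

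**Figure D1:**
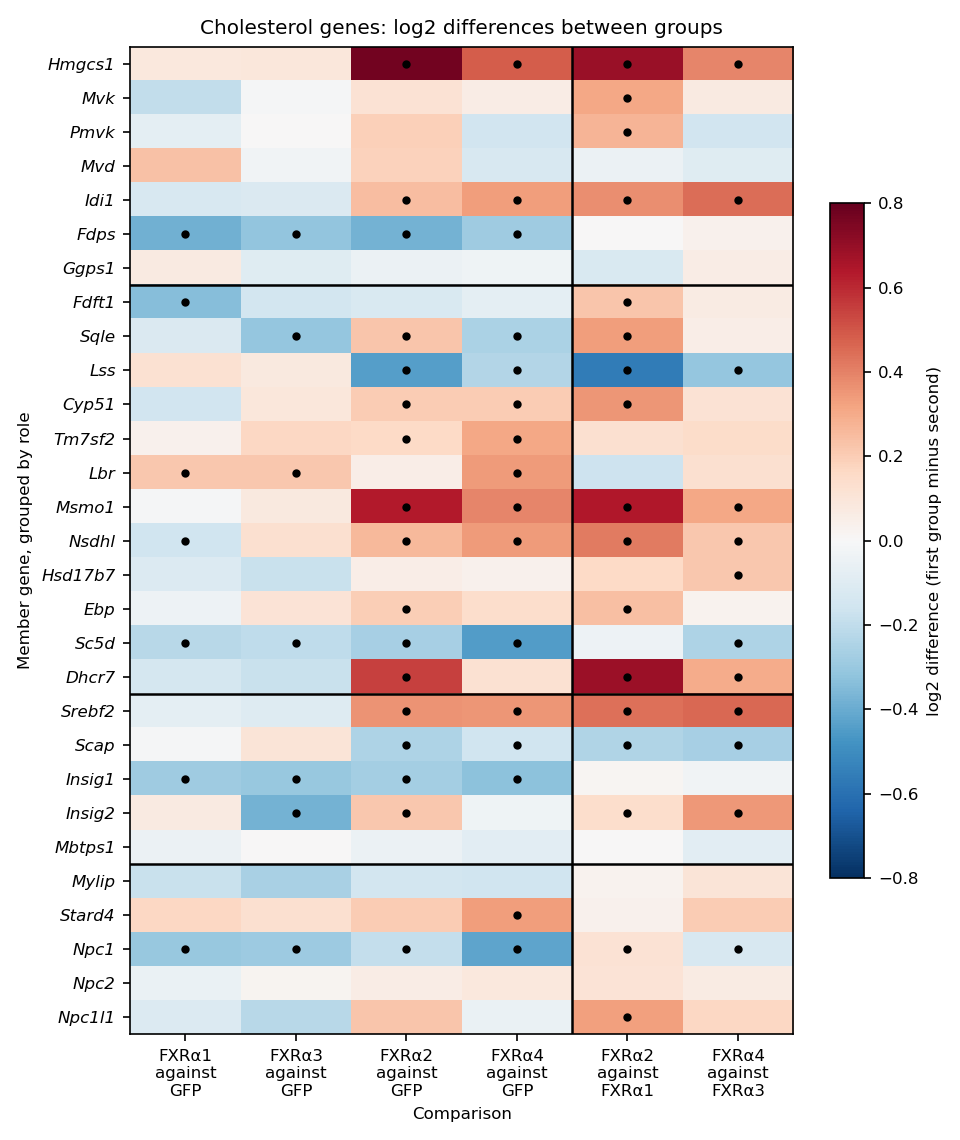
Log2 differences (colour) of the 29 measured genes, in rows grouped by role, in 6 comparisons, in columns; a dot marks an adjusted p under 0.05 in limma. Hmgcs1, Msmo1 and Dhcr7 are the darkest red with FXRα2, at 0.77, 0.63 and 0.55 against GFP, and Fdps, Insig1, Sc5d and Npc1 are blue with a dot in all 4 columns against GFP.

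Promoters of 5 of these genes are shown because they belong to the gene that rose most (Hmgcs1), to the regulators (Srebf2, Insig1), and to a sterol enzyme that rose (Msmo1) and one that fell (Lss) with FXRα2. Hmgcs1 came from a rule that asked for the sterol response element core, and the others were chosen after their values were seen. The sequences are those of RefSeq on GRCm38.p6, from 250 bases before to 50 bases after the start, read 5′ to 3′ on the gene's strand. Capitals mark the NF-Y box CCAAT or its reverse complement ATTGG, and the core TCACNCCAC with up to 1 mismatch, in the same or the opposite orientation. Hmgcs1 spans chr13:119690101-119690400 on the plus strand, Srebf2 chr15:82147019-82147318 on the plus strand, Msmo1 chr8:64733529-64733828 on the minus strand, Insig1 chr5:28071162-28071461 on the plus strand and Lss chr10:76531355-76531654 on the plus strand.
Hmgcs1: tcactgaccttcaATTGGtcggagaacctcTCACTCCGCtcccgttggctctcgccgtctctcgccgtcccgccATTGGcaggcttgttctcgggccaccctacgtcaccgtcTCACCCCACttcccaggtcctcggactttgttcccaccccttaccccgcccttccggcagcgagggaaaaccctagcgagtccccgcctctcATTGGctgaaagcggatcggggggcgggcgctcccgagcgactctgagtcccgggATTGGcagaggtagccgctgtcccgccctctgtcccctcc
Srebf2: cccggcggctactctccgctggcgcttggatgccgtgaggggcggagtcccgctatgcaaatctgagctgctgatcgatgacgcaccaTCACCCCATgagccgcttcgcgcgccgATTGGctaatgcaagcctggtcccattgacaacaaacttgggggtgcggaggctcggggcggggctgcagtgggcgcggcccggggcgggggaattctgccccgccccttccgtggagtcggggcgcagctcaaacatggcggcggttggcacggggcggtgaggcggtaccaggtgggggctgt
Msmo1: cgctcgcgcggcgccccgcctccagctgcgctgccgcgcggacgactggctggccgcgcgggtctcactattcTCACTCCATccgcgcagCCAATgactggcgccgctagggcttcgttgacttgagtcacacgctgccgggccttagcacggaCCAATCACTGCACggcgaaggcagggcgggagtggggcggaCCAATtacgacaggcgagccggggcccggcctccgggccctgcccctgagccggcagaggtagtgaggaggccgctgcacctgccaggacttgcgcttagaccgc
Insig1: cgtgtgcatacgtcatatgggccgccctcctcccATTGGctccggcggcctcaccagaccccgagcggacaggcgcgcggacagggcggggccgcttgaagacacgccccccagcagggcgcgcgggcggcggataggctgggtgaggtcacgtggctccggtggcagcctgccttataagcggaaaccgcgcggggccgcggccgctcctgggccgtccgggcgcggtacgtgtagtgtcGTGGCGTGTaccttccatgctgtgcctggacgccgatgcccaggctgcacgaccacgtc
Lss: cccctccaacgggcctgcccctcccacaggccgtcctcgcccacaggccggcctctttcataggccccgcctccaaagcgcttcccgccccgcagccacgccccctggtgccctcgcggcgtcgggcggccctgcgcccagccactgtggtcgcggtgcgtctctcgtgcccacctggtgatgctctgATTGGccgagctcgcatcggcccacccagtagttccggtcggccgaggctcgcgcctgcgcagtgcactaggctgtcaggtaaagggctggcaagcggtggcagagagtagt

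Of the 29 measured genes, 24 had an entry in the RefSeq promoter table; Fdft1, Fdps, Npc1, Sqle and Stard4 had no match there. Searching both strands, the exact core TCACNCCAC was present in 1 of the 24, Hmgcs1, which is 4.167%, against 1.436% of all 27025 genes with a promoter. In Hmgcs1 it began at position -137, counted from the start, as TCACCCCAC. With up to 1 mismatch, a search added after the values were seen, the core was present in 10 of the 24, or 41.667%, against 26.701% of all genes. In Srebf2 the near match TCACCCCAT began at position -162. Msmo1 held near matches at positions -177 and -92, the nearer one sharing a base with an NF-Y box. In Insig1 the near match began at position -9 in the opposite orientation, and Lss held none. The NF-Y box was present in 22 of the 24, or 91.667%, all but Mbtps1 and Scap, against 41.058% of all genes. Hmgcs1 held 4 NF-Y boxes, Msmo1 3, and Srebf2, Insig1 and Lss 1 each. The FXR inverted repeat, which is a pair of AGGTCA sites facing each other across 1 base, was present with up to 2 mismatches in 0 of the 24 and in 1.347% of all genes. These counts describe letters in a window of 300 bases and not binding.

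Among the mevalonate and isoprenoid enzymes, of which 7 of 8 were measured, Hmgcs1 stood out. Hmgcs1 makes HMG-CoA in the cytosol, and its promoter is the one above with an exact core. Its log2 levels were 9.25, 9.12 and 9.12 on the GFP arrays, 9.31, 9.16 and 9.27 with FXRα1, 9.94, 9.97 and 9.90 with FXRα2, 9.24, 9.27 and 9.25 with FXRα3, and 9.63, 9.61 and 9.69 with FXRα4. The FXRα2 arrays were the highest, the FXRα4 arrays came next with no overlap, and the other 3 groups lay together. Hmgcs1 rose by 0.77 with FXRα2 (SE 0.052, 1.71-fold, limma adjusted p = 5.86e-11) and by 0.48 with FXRα4 (SE 0.052, 1.40-fold, limma adjusted p = 1.19e-07). By size, the FXRα2 difference was the 1008th of 18820 genes. With FXRα1 and FXRα3 the difference was 0.09 each, with limma adjusted p of 0.367 and 0.342.

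Idi1, which isomerises isopentenyl diphosphate, also rose in both groups without the insert. Its levels were 10.02, 9.82 and 9.77 with GFP, 10.15, 10.17 and 10.02 with FXRα2 and 10.15, 10.29 and 10.17 with FXRα4, so the FXRα2 arrays overlapped with the highest GFP array and the FXRα4 arrays lay above it. The differences were 0.24 (limma adjusted p = 0.00347) and 0.33 (limma adjusted p = 0.000178). A second, dimmer probe set of Idi1 gave 0.19 with FXRα2 and 0.26 with FXRα4, and -0.24 with FXRα1, where the brighter one gave -0.13; all 3 values of the dimmer set passed the test. Under median centring the brighter probe set of Idi1 no longer passed against GFP in either group.

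Fdps, which condenses the isoprenoid units into farnesyl diphosphate, went the other way. Its levels were 10.53, 10.40 and 10.40 with GFP and between 10.04 and 10.21 on all 12 isoform arrays, so GFP did not overlap with any isoform group. Fdps fell by 0.38 with FXRα1, by 0.38 with FXRα2, by 0.32 with FXRα3 and by 0.28 with FXRα4, and the largest limma adjusted p of the 4 was 2.69e-05. Mvk, the kinase that phosphorylates mevalonate, Pmvk, the kinase of the next step, Mvd, the decarboxylase that yields isopentenyl diphosphate, and Ggps1, which makes geranylgeranyl diphosphate, did not pass the test against GFP with any isoform. Their log2 differences from GFP lay between -0.20 (Mvk with FXRα1) and 0.23 (Mvd with FXRα1). Of the 7 enzymes, 2 rose and 1 fell with FXRα2 and with FXRα4, and 0 rose and 1 fell with FXRα1 and with FXRα3. Over all genes, 17.5% rose and 16.7% fell with FXRα2, and 18% and 15.7% with FXRα4. The shares were 8.42% and 4% with FXRα1, and 7.45% and 6.62% with FXRα3.

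**Figure D2:**
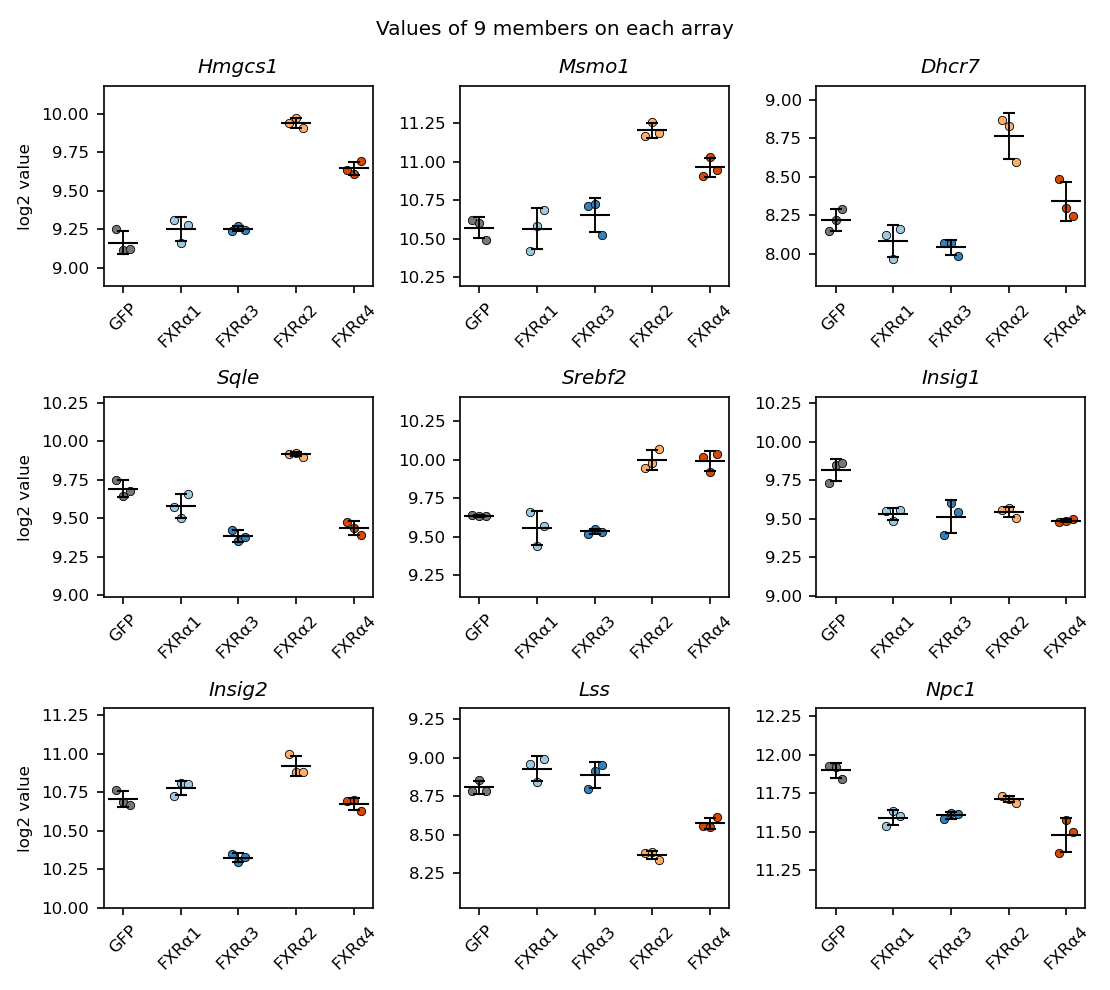
Log2 level on each array (points) of 9 genes by group, with the mean and SD of 3 arrays (lines); each panel has its own axis of equal span, which does not start at 0. Hmgcs1 and Msmo1 are highest with FXRα2 and next with FXRα4, Srebf2 is equally high in both, Insig1 and Npc1 are lower than GFP in every isoform group, and Insig2 is lowest with FXRα3.

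All 12 listed enzymes of the squalene and sterol steps were measured. With FXRα2, 7 rose and 2 fell, with FXRα4 5 rose and 3 fell, with FXRα1 1 rose and 3 fell, and with FXRα3 1 rose and 2 fell. Over all genes, 17.5% rose and 16.7% fell with FXRα2, and 18% and 15.7% with FXRα4. The shares were 8.42% and 4% with FXRα1, and 7.45% and 6.62% with FXRα3. Msmo1, an oxidase that removes methyl groups from the sterol ring, rose most. Its levels were 10.62, 10.60 and 10.50 with GFP, 10.42, 10.59 and 10.69 with FXRα1, 11.17, 11.26 and 11.19 with FXRα2, 10.71, 10.72 and 10.53 with FXRα3, and 10.91, 11.03 and 10.95 with FXRα4. The order of the groups was that of Hmgcs1, with FXRα2 above FXRα4 and both above the rest. Msmo1 rose by 0.63 with FXRα2 (SE 0.061, 1.55-fold, limma adjusted p = 2.2e-08) and by 0.39 with FXRα4 (SE 0.061, 1.31-fold, limma adjusted p = 2.03e-05).

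Array values of Dhcr7, Sqle, Lss, Nsdhl, Sc5d, Fdft1, Fdps, Idi1 and Npc1 are given because of their differences and were chosen after these were seen. Dhcr7 is a reductase of the final steps to cholesterol. Its levels were 8.14, 8.22 and 8.29 with GFP, 8.12, 7.96 and 8.16 with FXRα1, 8.87, 8.83 and 8.59 with FXRα2, 8.07, 8.07 and 7.98 with FXRα3, and 8.48, 8.29 and 8.24 with FXRα4. Only the FXRα2 arrays stood clear of GFP above it, by 0.55 on average (SE 0.079, 1.46-fold, limma adjusted p = 7.43e-06), and the FXRα4 difference of 0.12 did not pass (limma adjusted p = 0.276). Nsdhl, a dehydrogenase of the same demethylation as Msmo1, had levels of 8.96, 8.95 and 9.01 with GFP, 9.23, 9.24 and 9.23 with FXRα2 and 9.31, 9.35 and 9.29 with FXRα4. It rose by 0.26 and 0.34 (limma adjusted p = 0.000132 and 4.34e-06), the first lost under median centring, while with FXRα1 it fell by 0.16 (limma adjusted p = 0.0322), a call lost without any 1 of 5 arrays.

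Sqle, the squalene epoxidase and a rate-limiting enzyme of the late route, differed in direction between the isoforms. Its levels were 9.75, 9.64 and 9.68 with GFP, 9.57, 9.50 and 9.66 with FXRα1, 9.92, 9.92 and 9.90 with FXRα2, 9.43, 9.35 and 9.38 with FXRα3, and 9.48, 9.44 and 9.39 with FXRα4. The FXRα2 arrays lay above all others, and the FXRα3 and FXRα4 arrays lay below GFP. Sqle rose by 0.22 with FXRα2 (SE 0.050, limma adjusted p = 0.000958) and fell by 0.31 with FXRα3 and by 0.26 with FXRα4 (limma adjusted p = 0.000109 and 0.00024). Under median centring the rise with FXRα2 shrank to 0.0025 and did not pass, and both falls passed.

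Lss, the cyclase that forms lanosterol, fell with the isoforms without the insert. Its levels were 8.78, 8.86 and 8.78 with GFP, 8.96, 8.84 and 8.99 with FXRα1, 8.38, 8.39 and 8.34 with FXRα2, 8.79, 8.91 and 8.96 with FXRα3, and 8.56, 8.55 and 8.62 with FXRα4. The groups without the insert lay below every other array. Lss fell by 0.44 with FXRα2 (SE 0.058, limma adjusted p = 2.32e-06) and by 0.23 with FXRα4 (SE 0.058, limma adjusted p = 0.00296).

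Sc5d, the desaturase that acts before Dhcr7, fell with all isoforms: from 10.65, 10.59 and 10.61 with GFP to between 10.27 and 10.47 with FXRα1, FXRα2 and FXRα3, and to 10.11, 10.27 and 10.12 with FXRα4. No isoform array reached the GFP range. The falls were 0.22, 0.26 and 0.21 with FXRα1 to FXRα3, and Sc5d fell by 0.45 with FXRα4 (SE 0.051, limma adjusted p = 2.42e-07). The FXRα3 call was lost without FXRα3 replicate 3 (limma adjusted p = 0.0544). Fdft1, the squalene synthase, passed with FXRα1 only, where it fell by 0.34 (SE 0.069, limma adjusted p = 0.00118); its levels there were 10.48, 10.69 and 10.77, against 11.02, 11.04 and 10.90 with GFP. With the other isoforms its differences were -0.12, -0.14 and -0.08.

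Lbr, the lamin B receptor, which is also a sterol reductase, rose by 0.34 with FXRα4 (limma adjusted p = 0.00028) and by 0.22 with FXRα1 and FXRα3 (limma adjusted p = 0.0352 and 0.0318), and the last pair of calls were each lost without any 1 of 4 arrays. Tm7sf2, a reductase of the same reaction, rose by 0.31 with FXRα4 and by 0.16 with FXRα2 (limma adjusted p = 0.000316 and 0.0483); the FXRα2 call was lost without any 1 of 5 arrays (limma adjusted p up to 0.192). Cyp51, the lanosterol demethylase, rose by 0.20 with both FXRα2 and FXRα4, and Ebp, a sterol isomerase, by 0.20 with FXRα2. Both Cyp51 calls were lost without GFP replicate 2 (limma adjusted p = 0.0580 and 0.0536). That of Ebp was lost without FXRα2 replicate 2 or GFP replicate 3 (limma adjusted p up to 0.0889). Under median centring the FXRα2 differences of Cyp51, Tm7sf2 and Ebp turned to -0.021, -0.061 and -0.023, and that of Cyp51 with FXRα4 to -0.0080; Tm7sf2 with FXRα4 no longer passed there. Hsd17b7, a reductase of the demethylation steps, did not pass against GFP, with differences between -0.18 and 0.05.

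Of the 5 measured genes for SREBP2 and its control, Srebf2 rose with the isoforms without the insert. Its levels were 9.64, 9.63 and 9.63 with GFP, 9.66, 9.44 and 9.57 with FXRα1, 9.94, 9.98 and 10.07 with FXRα2, 9.52, 9.55 and 9.53 with FXRα3, and 10.02, 9.92 and 10.04 with FXRα4. The FXRα2 and FXRα4 arrays overlapped with each other and lay above all the rest. Srebf2 rose by 0.36 with FXRα2 (SE 0.054, 1.28-fold, limma adjusted p = 1.08e-05) and by 0.36 with FXRα4 (SE 0.054, 1.28-fold, limma adjusted p = 1.29e-05). With FXRα1 and FXRα3 the differences were -0.08 and -0.10 and did not pass.

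Insig1, itself a target of SREBP2 and its anchor in the endoplasmic reticulum, was lower in every isoform group. Its levels were 9.73, 9.85 and 9.86 with GFP, 9.55, 9.48 and 9.56 with FXRα1, 9.56, 9.57 and 9.51 with FXRα2, 9.39, 9.60 and 9.54 with FXRα3, and 9.48, 9.49 and 9.50 with FXRα4. The GFP arrays lay above all 12 isoform arrays, and the isoform groups overlapped. Insig1 fell by 0.28, by 0.27, by 0.30 and by 0.33 with FXRα1 to FXRα4 (SE 0.054 each), and the largest limma adjusted p of the 4 was 0.000673. Insig2, the second anchor, had levels of 10.76, 10.68 and 10.67 with GFP, 10.73, 10.81 and 10.80 with FXRα1, 11.00, 10.88 and 10.88 with FXRα2, 10.35, 10.30 and 10.33 with FXRα3, and 10.69, 10.70 and 10.63 with FXRα4. The FXRα3 arrays were the lowest and the FXRα2 arrays the highest, with no overlap with other groups. Insig2 fell by 0.38 with FXRα3 (SE 0.043, 1.30-fold lower, limma adjusted p = 1.35e-06) and rose by 0.21 with FXRα2 (SE 0.043, limma adjusted p = 0.000387); under median centring the FXRα2 value was -0.0062 and the FXRα3 fall still passed. Insig1 and Insig2 differed in direction with FXRα2.

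Scap, the sterol-sensing escort, fell by 0.25 with FXRα2 and by 0.16 with FXRα4 (limma adjusted p = 0.0005 and 0.0178); a second, dimmer probe set passed in no comparison. The FXRα4 call of Scap was lost without FXRα4 replicate 3 or GFP replicate 2, with limma adjusted p up to 0.140. Mbtps1, a protease that releases SREBP2 in the Golgi, passed in none of the 9 comparisons, with differences from GFP between -0.09 and 0.00.

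Of the 5 measured genes of uptake and transport, Npc1 fell with every isoform and Stard4 rose with FXRα4. Npc1, the membrane protein that exports cholesterol from lysosomes, had levels of 11.93, 11.92 and 11.84 with GFP, 11.54, 11.64 and 11.60 with FXRα1, 11.73, 11.71 and 11.69 with FXRα2, 11.58, 11.63 and 11.61 with FXRα3, and 11.36, 11.58 and 11.50 with FXRα4. All 12 isoform arrays lay below the GFP arrays. Npc1 fell by 0.31, by 0.19, by 0.29 and by 0.42 with FXRα1 to FXRα4 (SE 0.045 each), and the largest limma adjusted p of the 4 was 0.00186. Npc2, its soluble partner in the lysosome, did not pass in any of the 9 comparisons, with differences from GFP between -0.05 and 0.08. Stard4, which carries sterol through the cytosol, rose by 0.33 with FXRα4 (SE 0.086, limma adjusted p = 0.0038), a call lost under median centring. Mylip, a ubiquitin ligase for lipoprotein receptors, and Npc1l1, a sterol importer, did not pass against GFP, with differences from -0.26 to -0.15 for Mylip and from -0.22 to 0.22 for Npc1l1.

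The next comparisons set isoforms of the same N-terminus against each other and ask what goes with the lack of the insert. With the shorter N-terminus, 15 of the 29 genes were higher with FXRα2 than with FXRα1 and 2 were lower, where 14.1% of all genes rose and 17.1% fell. The median over the 29 was 0.14, beside -0.041 over all genes. With the longer N-terminus, 8 were higher with FXRα4 than with FXRα3 and 4 were lower, against a background of 15.8% and 13.8%, and the medians were 0.074 and -0.017. Under median centring these splits were 9 and 4, and 4 and 9, with all-gene shifts of -0.12 and -0.17. Of all 18820 genes, 1834 were then higher and 6204 lower with FXRα2 than with FXRα1. Between FXRα4 and FXRα3 these counts over all genes were 1697 and 7503. These comparisons share no array. In both, the higher genes included Dhcr7, Hmgcs1, Idi1, Insig2, Msmo1, Nsdhl and Srebf2, which is 7 genes, 46.67% of the 15 and 87.5% of the 8; over all genes, those higher in both were 61.8% and 55.2% of the genes higher in each. Under the deposited scale and all 3 other scalings, only 3 of the 7 passed in both comparisons, Hmgcs1, Idi1 and Srebf2: under median centring Msmo1, Nsdhl and Dhcr7 no longer passed between FXRα4 and FXRα3, nor Insig2 between FXRα2 and FXRα1. Lss and Scap were lower in both under every scaling, which is 100% of the 2 and 50% of the 4, beside 50.2% and 62.5% over all genes. Of the 29 genes, 23 had the same sign in both, as did 67.6% of all genes.

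Hmgcs1 was higher by 0.69 with FXRα2 than with FXRα1 (SE 0.052, 1.61-fold, limma adjusted p = 7.35e-10) and by 0.39 with FXRα4 than with FXRα3 (SE 0.052, 1.31-fold, limma adjusted p = 3.13e-06). Srebf2 was higher by 0.44 and by 0.46 (SE 0.054 each, limma adjusted p = 9.55e-07 and 6.35e-07), and its arrays did not overlap in either comparison. Dhcr7 was higher by 0.68 and 0.30, Msmo1 by 0.64 and 0.31, Nsdhl by 0.42 and 0.21, and Idi1 by 0.37 and 0.45. The dimmer probe set of Idi1 gave 0.44 and 0.38, both past the test. Lss was lower, at -0.56 (1.47-fold lower, limma adjusted p = 8.99e-08) and -0.31 (1.24-fold lower, limma adjusted p = 0.000202), and Scap was at -0.24 and -0.27. Cyp51, Mvk and Sqle were higher with FXRα2 than with FXRα1 under every scaling, by 0.35, 0.31 and 0.34, and did not pass between FXRα4 and FXRα3, at 0.11, 0.07 and 0.05.

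**Figure D3:**
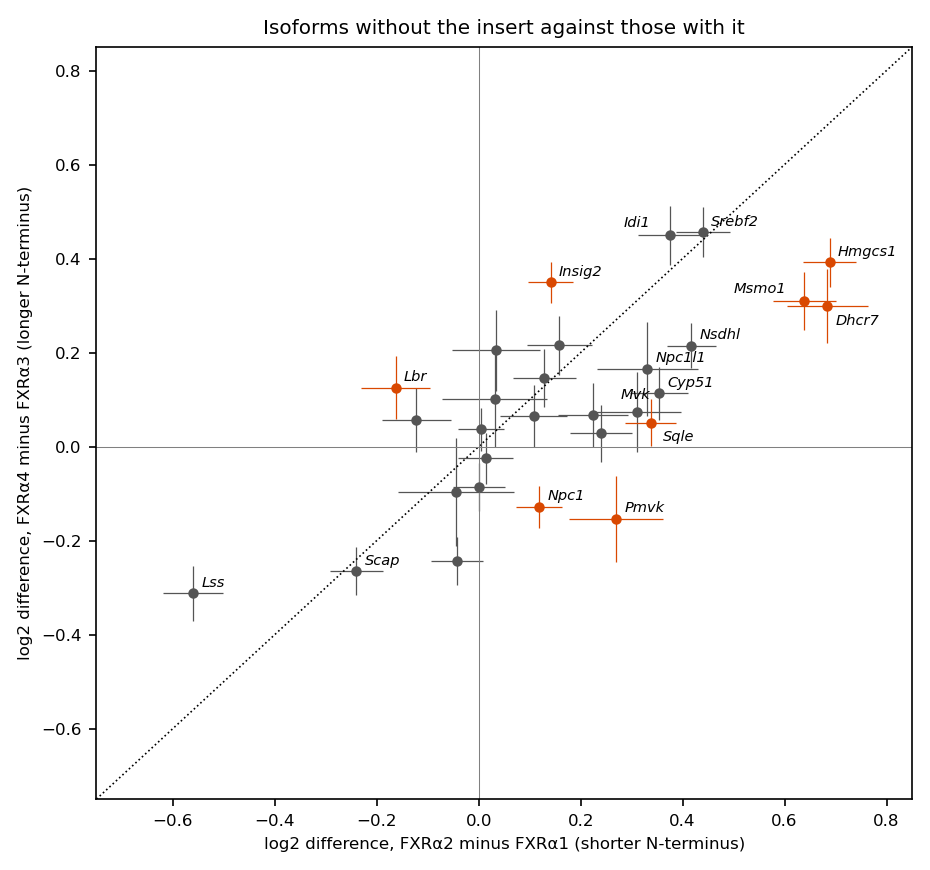
Each point is 1 of the 29 genes; the x axis is the log2 difference FXRα2 minus FXRα1 and the y axis FXRα4 minus FXRα3, with bars of 1 SE from limma and the dotted line marking equal differences. Orange points are the 8 genes whose differences are unequal at an adjusted p under 0.05; Hmgcs1, Msmo1 and Dhcr7 lie to the right of the line, Srebf2 and Idi1 close to it, and Lss and Scap at the lower left.

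Whether both insert differences were equal was tested by the interaction, the FXRα4 minus FXRα3 difference less the FXRα2 minus FXRα1 difference. It was above 0 for 2 of the 29 genes and below 0 for 6, where 7.24% and 5.63% of all genes were called. Hmgcs1, Msmo1, Dhcr7, Sqle, Npc1 and Pmvk had interactions of -0.30, -0.33, -0.39, -0.29, -0.25 and -0.42. The estimated difference was thus smaller with the longer N-terminus, or below 0 for Npc1 and Pmvk. The Pmvk difference below 0 did not pass by itself (limma adjusted p = 0.245). That of Npc1, between FXRα4 and FXRα3, passed, and its call was lost without any 1 of 5 arrays. The interaction call of Npc1 was kept without each array in turn (limma adjusted p up to 0.0326). Insig2 and Lbr had interactions of 0.21 and 0.29. The limma adjusted p-values lay between 0.00799 (Sqle) and 0.0495 (Lbr). The count of 8 fell to 5 without any 1 of 5 arrays (FXRα2 replicate 1 or 2, FXRα3 replicate 1 or 2, or FXRα4 replicate 3), and to 3 with no mean-variance trend, where Lbr, Msmo1, Dhcr7, Insig2 and Npc1 no longer passed. Calls over all genes fell as well, from 2422 to between 1863 and 1928 without those arrays, and to 2030 with no trend. For Srebf2 the interaction was 0.02 (SE 0.076), and for Idi1 0.07 (SE 0.088).

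Isoforms that differ in the N-terminus alone were compared last. Between FXRα3 and FXRα1, which carry the insert, 2 of the 29 genes were higher with FXRα3 and 2 lower, where 2.21% of all genes rose and 4.65% fell. Insig2 was lower by 0.45 (SE 0.043, 1.37-fold lower, limma adjusted p = 4.75e-07), the 343rd by size of 18820 genes, with all FXRα3 arrays below the FXRα1 arrays. Nsdhl and Cyp51 were higher with FXRα3 by 0.28 and 0.24 (limma adjusted p = 0.000474 and 0.00901), and Sqle was at -0.19 (limma adjusted p = 0.0181). The Sqle call was lost without any 1 of 3 arrays (limma adjusted p up to 0.0998) and under median and 75th percentile centring, and that of Cyp51 without FXRα3 replicate 2. The count of 4 became 2 without FXRα3 replicate 2 and 7 under each of the 3 other scalings, where the split was 5 and 2 or 6 and 1. Calls over all genes went from 1291 to 780 without that array. They became 1606 under quantile normalization, 1508 under median centring and 1604 under 75th percentile centring. Between FXRα4 and FXRα2, which lack the insert, 2 genes were higher with FXRα4 and 9 lower, against a background of 11.7% and 12%. Sqle differed most clearly, at -0.48 (SE 0.050, 1.39-fold lower with FXRα4, limma adjusted p = 1.93e-07), and its arrays did not overlap. Dhcr7 was at -0.43, Pmvk at -0.34, Hmgcs1 at -0.29, Npc1l1 at -0.28, Insig2 at -0.25, Msmo1 at -0.24, Npc1 at -0.23 and Sc5d at -0.19, all past the test. The call of Npc1l1 was lost without any 1 of 5 arrays (limma adjusted p up to 0.213) and that of Sc5d without any 1 of 3, and both were lost under median and 75th percentile centring. Lbr and Lss were higher with FXRα4, by 0.29 and 0.21. Srebf2 differed by -0.01 (SE 0.054) between FXRα4 and FXRα2 and by -0.02 (SE 0.054) between FXRα3 and FXRα1. Of the 29 genes, 5 passed in none of the 9 comparisons: Ggps1, Mbtps1, Mvd, Mylip and Npc2. The share of all genes that passed in none of the 9 was not computed, so this count has no background beside it.

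**Figure D4:**
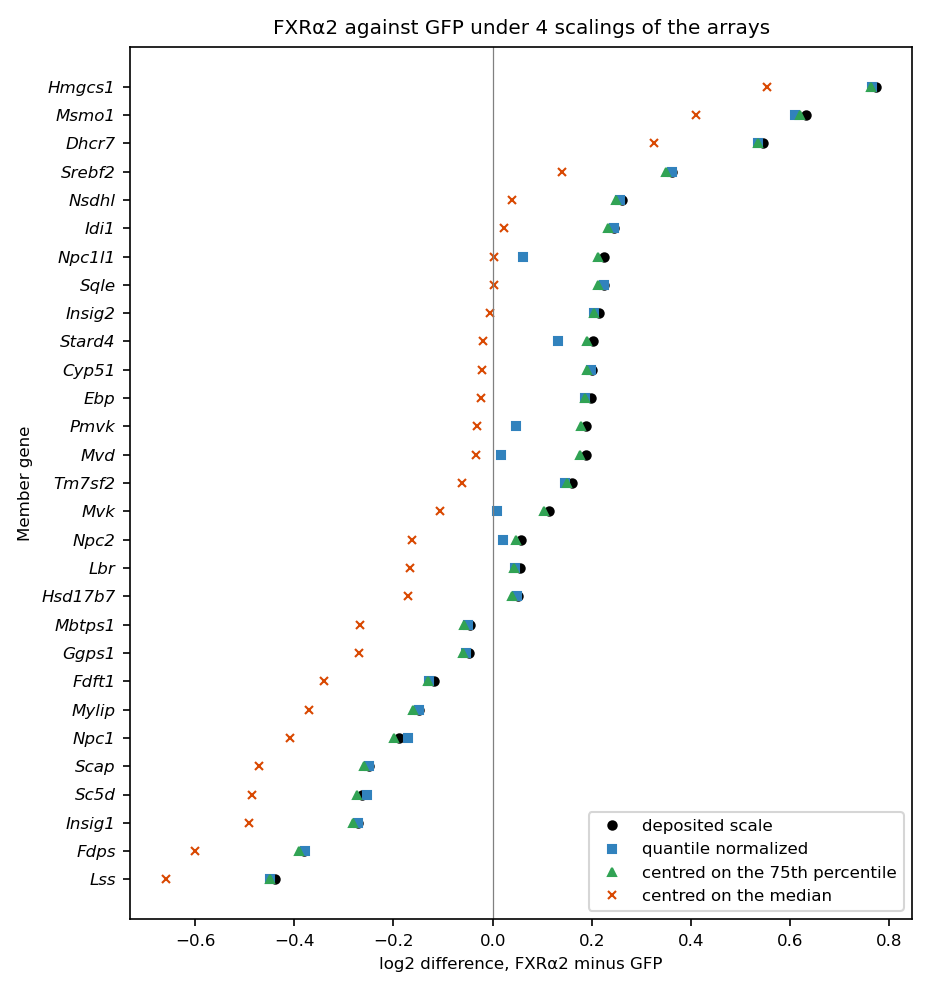
Log2 difference of the 29 genes between FXRα2 and GFP (x axis), in rows ordered by the deposited values, under the deposited scale and 3 other scalings (symbols). Median centring moves all points to the left by 0.22, so that Hmgcs1, Msmo1, Dhcr7 and Srebf2 stay well to the right of 0 while Cyp51, Ebp, Insig2 and Tm7sf2 cross it.

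Neighbouring pathways were read from lists drawn up with earlier results known. Their counts stand beside the shares of all genes given above, which in total were 34.3% for FXRα2, 33.8% for FXRα4, 12.4% for FXRα1 and 14.1% for FXRα3. Of 15 measured genes otherwise linked to SREBP2 or sterols, 7 rose and 1 fell with FXRα2 (median 0.057), 4 rose and 4 fell with FXRα4 (median -0.041), 4 and 1 with FXRα1, and 2 and 1 with FXRα3. Rdh11, a retinol dehydrogenase, rose by 0.51, by 0.44 and by 0.39 with FXRα1 to FXRα3, and Elovl6, a fatty acid elongase, by 0.42 with FXRα2. Sec14l2, a protein reported to stimulate squalene epoxidation, fell by 0.72 with FXRα3 and by 0.67 with FXRα4. Cyb5a, the cytochrome that passes electrons to Sc5d and Msmo1, fell by 0.54 with FXRα4 (limma adjusted p = 1.95e-06).

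Of 10 measured genes for turnover of sterol-regulated proteins at the endoplasmic reticulum, 0 rose and 1 fell with FXRα1, 1 and 3 with FXRα2, 0 and 3 with FXRα3, and 2 and 4 with FXRα4. Ube2g2, a ubiquitin-conjugating enzyme, fell by 0.19, by 0.32, by 0.51 and by 0.53 with FXRα1 to FXRα4, and Erlin1 and Erlin2, scaffolds of the same membrane, fell by 0.51 and by 0.55 with FXRα4. Of 12 genes of the non-sterol isoprenoid branches, 0 rose and 1 fell, 1 and 5, 1 and 3, and 1 and 6 did so with FXRα1 to FXRα4. Coq2, which prenylates the precursor of ubiquinone, fell by 0.57 with FXRα2 and by 0.56 with FXRα4, and Fntb, the beta subunit of farnesyltransferase, rose by 0.80 and by 0.65. Fnta, its alpha subunit, fell by 0.58 with FXRα2 and by 0.41 with FXRα3. Of 20 genes of LXR, oxysterols and sterol transfer, 5 rose and 2 fell, 5 and 5, 0 and 5, and 4 and 8 did so with FXRα1 to FXRα4. Lcat, which esterifies cholesterol in plasma, rose by 0.94 with FXRα2 and by 0.46 with FXRα4, and Gramd1c, a sterol carrier at membrane contacts, by 0.95 and 0.67. Abcg5 and Abcg8, the partners of the biliary sterol exporter, fell by 0.51 and by 0.43 with FXRα3.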

How the data were processed

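Total RNA of cultured mouse hepatocytes was measured on 15 whole-transcript arrays. The authors deposited 1 log2 value per probe set and array; the log base is inferred from their range, 1.93 to 13.8. Affymetrix Expression Console 1.1 and PLIER are listed, per the submitters' processing notes, with no step given for either, and normalization between arrays is not given in the sources used here. Of 35556 probe sets, 21218 carried 1 symbol, 1881 several and 12457 none; the brightest per gene was kept, with no filter on dim genes.

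The log2 values of all 15 arrays entered 1 linear model with a mean per group (limma 3.58.1, R 4.3.3), in which the moderated variance depends on the mean level. Tests were two-sided. Tables and figures used Python 3.11.15, pandas 2.3.3 and matplotlib 3.10.9. The script was tested on simulated data. The number of arrays, 3 per group, limits the precision.

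The genes, lists and tests were chosen with earlier results of these data known. All listed genes could be named; array values were to be given for Srebf2, Insig1, Insig2 and genes changed by at least 0.58 against GFP, and others shown were chosen after their values were seen. From each neighbouring list, up to 4 genes with the smallest adjusted p could be named. The alternatives were no variance trend, robust variances, 3 scalings, leaving out dim genes in either of 2 steps, 16 added to the linear values, every probe set tested, leaving out each array, a replicate block, and the groups of the comparison alone.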

Additional observations from a re-analysis of the deposited data

Results flagged for a closer look

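For 8 genes the difference between isoforms without and with the insert itself differed between the longer and the shorter N-terminus, by the interaction test in limma adjusted over all genes. For Sqle the differences were 0.34 with the shorter and 0.051 with the longer N-terminus (interaction -0.29, limma adjusted p = 0.00799). For Hmgcs1 they were 0.69 and 0.39 (interaction -0.30, limma adjusted p = 0.00858), for Msmo1 0.64 and 0.31 (interaction -0.33, limma adjusted p = 0.0127), and for Dhcr7 0.68 and 0.30 (interaction -0.39, limma adjusted p = 0.0237). For Npc1 the sign of the estimate turned, from 0.12 to -0.13 (interaction -0.25, limma adjusted p = 0.0113). It also turned for Pmvk, from 0.27 to -0.15 (interaction -0.42, limma adjusted p = 0.0334), and for Lbr, from -0.16 to 0.13 (interaction 0.29, limma adjusted p = 0.0495). The -0.15 of Pmvk and both Lbr values did not pass by themselves (limma adjusted p = 0.245, 0.0728 and 0.189). Both Npc1 values passed, and each call was lost without any 1 of 5 arrays. For Insig2 the difference was larger with the longer N-terminus, 0.35 against 0.14 (interaction 0.21, limma adjusted p = 0.0270). Leaving out single arrays ended the call of Dhcr7 for 7 of the 12 isoform arrays, of Insig2 for 6, of Pmvk for 6 and of Lbr for 9. With no mean-variance trend, Lbr, Msmo1, Dhcr7, Insig2 and Npc1 no longer passed, and under median and 75th percentile centring Insig2 did not.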

How the results depend on the processing

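Of 99 calls of single genes over the 9 comparisons, 94 kept their sign and 71 their call under all 3 other scalings, and 73 kept their call without each array in turn. The 5 that turned did so under median centring, with FXRα2 against GFP to -0.021 for Cyp51, -0.061 for Tm7sf2, -0.023 for Ebp and -0.0062 for Insig2, and with FXRα4 against GFP to -0.0080 for Cyp51. Another 5 differences did not pass on the deposited scale, and passed with the opposite sign under median centring: -0.17 for Lbr, -0.17 for Hsd17b7 and -0.16 for Npc2 with FXRα2, -0.18 for Hsd17b7 with FXRα4, and -0.15 for Ebp between FXRα4 and FXRα3. Sign turns of differences that passed under neither scale are not listed. Centring itself shifts every difference of a comparison by the same amount. The number of genes called became 12 with FXRα1 under median centring, 7 between FXRα3 and FXRα1 under quantile normalization, median centring and centring on the 75th percentile, and 3 for the interaction with no mean-variance trend. In the other cases the counts stayed within 1.5 times under the alternatives that kept all 15 arrays. For the cases named, calls over all 18820 genes went from 2336 to 3075 with FXRα1. They went from 1291 to 1606, 1508 and 1604 between FXRα3 and FXRα1, and from 2422 to 2030 for the interaction. Without single arrays the counts of the 29 genes ranged from 5 to 7, 15 to 17, 5 to 8 and 14 to 16 with FXRα1 to FXRα4 against GFP, from 14 to 18 between FXRα2 and FXRα1, 10 to 12 between FXRα4 and FXRα3, 2 to 6 between FXRα3 and FXRα1, 8 to 11 between FXRα4 and FXRα2, and 5 to 11 for the interaction. Over all genes the calls were 1749 to 2789, 5592 to 5941, 2000 to 2113 and 5601 to 6081 against GFP in that order. For the next 4 comparisons they were 5055 to 5861, 4745 to 5131, 780 to 1926 and 3610 to 4256. For the interaction they were 1863 to 2836. Without GFP replicate 1, the array with the highest interferon genes, the counts of the 29 genes were 6, 17, 8 and 16 against GFP. Over all genes they were 1889, 5941, 2092 and 5792. With the replicate number as a replicate block the counts of the 29 genes were 8, 18, 8 and 16 against GFP, 19, 13, 5 and 12 for the next 4 comparisons in that order, and 12 for the interaction, and no call was lost. Over all genes the calls rose as well, from 2336, 6448, 2647 and 6352 against GFP to 3072, 7133, 3349 and 7062. For the next 4 comparisons they rose from 5882, 5561, 1291 and 4456 to 6570, 6297, 2117 and 5196. For the interaction they rose from 2422 to 3343. Deviations of same-numbered arrays correlated with r between -0.21 and 0.43 (median 0.16, against -0.077 for other numbers), and 13 of 15 arrays correlated best with an array of their own number, a hint of pairing from the data. The numbers were not used as pairs because the labels do not say what they share and some same-numbered pairs correlated below 0. With 3 arrays a group, the smallest difference that passed was 0.12 (Npc1, FXRα2 against FXRα1). The SE of a difference between 2 groups ran from 0.043 for Insig2 to 0.11 for Mvd. For the interaction of Pmvk the SE was 0.13.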
